A study of Arabidopsis thaliana with 2 samples.

Results

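The distal end of chromosome 1 of Arabidopsis thaliana, from 21 Mb to the last listed position of the chromosome, held 4457 listed single nucleotide polymorphisms (SNPs), which was 88.8% of the 5021 listed on this chromosome and 11.0% of the 40612 listed in all. These members were chosen by position (chromosome 1, 21000001 and beyond, TAIR10 build), and the boundary was itself placed after the density of the list had been seen. Density is therefore given here as a description, with no test. The last SNP outside the boundary stood at position 20997487 and the one before it at 20990688, while the first 2 inside stood at 21018925 and 21042425. The last member stood at 30418238.

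The list came from a mapping experiment with 2 pools of seedlings, 1 with the potent phenotype and 1 without it, with 1 sample each. potent is a dominant mutation that was found in a screen for impaired lateral root formation, in a Col-0 line carrying the reporters DR5::Luciferase, pWOX5::ER-YFP and pSCR::ER-GFP that had been treated with 50 mM ethyl methanesulfonate (EMS) for 12 hours. Both pools descend from 6 crosses of the mutant to that reporter line followed by 5 crosses to the ecotype Ler, and about 200 seeds of the fifth cross were sown. The labels give Ler as the ecotype of both pools. The title of the list contains HomoMTsnps, which was not used to assign positions to a pool. The deposited positions themselves name neither pool and carry no allele, quality or read depth. No comparison between the pools was therefore possible, and the depth behind each site is unknown.

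Bulked sequencing maps a mutation by the parental alleles that the pooled plants share. Col-0 and Ler differ at very many natural sites, and blocks of chromosome that are inherited together carry runs of such sites. Natural sites are unevenly scattered, with conserved genes poor in them and some receptor, defence and repeat-rich stretches rich in them. Without alleles, a natural difference cannot be told apart from a change made by EMS, and a listed SNP in a gene is no evidence that the gene bears on the phenotype.

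Density in the segment was 473 SNPs per Mb (95% Poisson interval 459 to 487), against 26.9 per Mb in the first 21 Mb. The intervals cover counting error only, and neighbouring sites are inherited together. The rise took place in steps and was uneven. From 20 to 20.8 Mb the list held 4 SNPs, and no 100 kb window there held more than 1. By the rule used here, dense sequence began at 21.1 Mb. That was the first window from 20 Mb on that, together with the next, reached 25% of the segment's median 100 kb window of 37.5 SNPs. It held 18 SNPs and the next held 16. Before it, the windows from 20.8 to 20.9 Mb, 20.9 to 21 Mb and 21 to 21.1 Mb held 5, 13 and 6. Counts fell back below 25% of the median (9.375) in the windows from 21.7 to 22 Mb, with 8, 8 and 9. The 18 windows between 21 and 22.8 Mb all stayed below the median, with at most 32 SNPs. From 22.8 to 26.5 Mb, 35 of 37 windows reached the median, and the lowest held 36. The window that followed held 22, the first after 22.8 Mb under 75% of the median. These limits follow the same rule: at 10% of the median dense sequence began at 20.8 Mb and at 50% at 22.8 Mb.

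**Figure D1:**
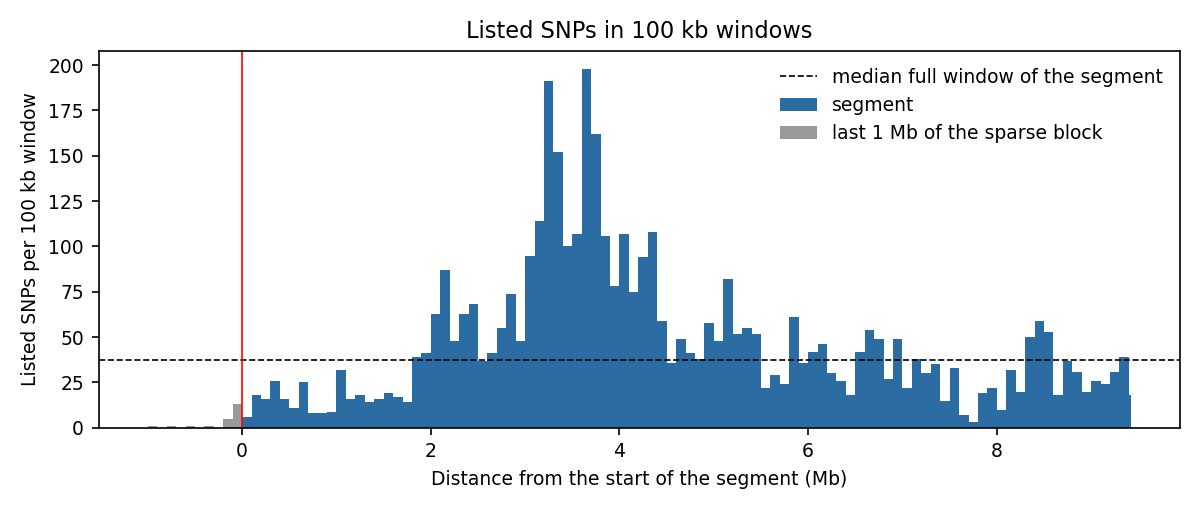
Listed SNPs (vertical axis, count) in consecutive 100 kb windows along the segment (horizontal axis, Mb from its start at 21 Mb); grey bars are the last 1 Mb before it, the red line is the boundary, and the dashed line is the median full window, 37.5 SNPs. The tallest bars hold 191 and 198 SNPs, and no full window of the segment is empty.

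The 1 Mb from 24 to 25 Mb held 1303 SNPs, 29.2% of the segment (95% Poisson interval 1233 to 1376 per Mb), and ranked first among the 116 full 1 Mb windows of all 5 chromosomes. The next was on chromosome 4, with 1226 SNPs. This rank was taken only with windows counted from position 1. On either side, 665 SNPs stood from 25 to 26 Mb and 584 from 23 to 24 Mb. Farther out the counts were 461 from 26 to 27 Mb, 383 from 27 to 28 Mb, 226 from 22 to 23 Mb and 143 from 21 to 22 Mb. The decline towards the end of the chromosome was not even, since 224 SNPs stood from 28 to 29 Mb and 330 from 29 to 30 Mb. Of all members, 25% lay before position 24163072, and 50% had been passed at 24930582, or 41.7% of the segment's length.

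Within the densest 1 Mb there were 2 crests with a lower stretch between them. The window from 24.2 to 24.3 Mb held 191 SNPs and the one from 24.6 to 24.7 Mb held 198, whereas those from 24.4 to 24.5 Mb and from 24.5 to 24.6 Mb held 100 and 107. All 10 windows with 100 or more SNPs fell among the 13 windows between 24.1 and 25.4 Mb. Taken at any offset, the densest 100 kb ran from position 24635760 to 24735078 with 216 SNPs, and the densest 1 Mb from 24038182 to 25036379 with 1341. At the other extreme, the windows from 28.6 to 28.7 Mb and from 28.7 to 28.8 Mb held 7 and 3 SNPs, in a part of the chromosome whose 500 kb window held 84.

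SNPs were clumped. The mean distance between neighbours was 2109 bp and the median 663 bp, and 73.4% of distances were shorter than the mean. The shortest 10% were of 15 bp or less and the longest 10% of 5520 bp or more. Of 4456 distances, 1012 were of 100 bp or less (22.7%, exact binomial 95% interval 21.49 to 23.97), and 39.3% of the SNPs had a neighbour that close. The share of distances of 100 bp or less was 32.2% from 24 to 25 Mb and 11.2% from 28 to 29 Mb, the lowest of the 1 Mb windows. Such a share rises with density, so this contrast is not a result apart from the density that chose the segment. In each 1 Mb window of the segment the median distance was below the mean, for example 293 bp against 767 bp from 24 to 25 Mb. Sites placed at random would also give a median below the mean and most distances shorter than the mean. Both features are therefore no evidence of clumping by themselves, and the spacing was not tested against random placement. Directly adjacent bases were listed 69 times, of which 41 pairs lay inside protein-coding genes, and 49 pairs were 2 bp apart. No 3 consecutive bases were listed together (0 cases). The variance of full 100 kb windows was 30.98 times their mean, a value that includes the broad rise and fall.

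**Figure D2:**
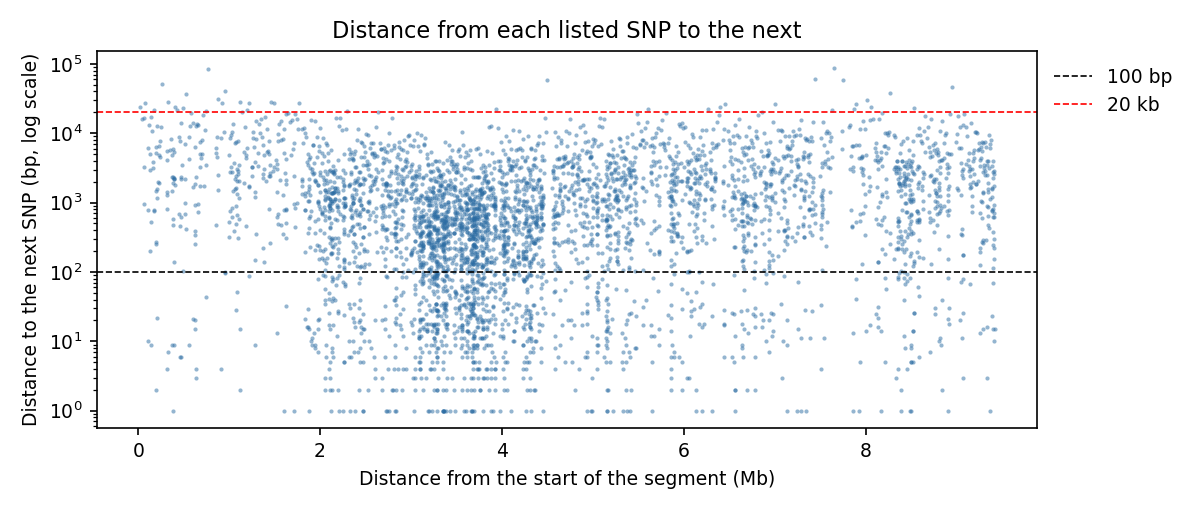
Distance from each listed SNP to the next (vertical axis, bp, log scale) against its place in the segment (horizontal axis, Mb from the start at 21 Mb); the dashed lines mark 100 bp and 20 kb. Of the 40 distances of 20 kb or more, 20 open before 23 Mb, 5 between 23 and 27 Mb and 15 beyond it.

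When neighbours up to 1 kb apart were joined, the segment fell into 1860 runs, of which 991 were single SNPs. The 52 runs of 10 or more SNPs held 772 SNPs, or 17.3% of the segment, and 35 of these runs began between 24 and 25 Mb. With a fixed limit of 1 kb, long runs are more frequent where density is high, so their place is a description of density. The longest run had 34 SNPs between positions 24687622 and 24696839. It covered AT1G66250 with 12 SNPs, part of AT1G66260 with 4 and AT1G66245 with 3, and 15 of its SNPs lay outside protein-coding genes. The second had 29 SNPs between 25015632 and 25022918. It took in ZFP6, a C2H2 zinc finger gene, with 9 SNPs, TRM22, a gene of the TON1 Recruiting Motif family, with 14, and AT1G67035 with 1. The third had 28 SNPs between 24551014 and 24557294, of which 23 lay in GAD2, which encodes a glutamate decarboxylase that makes the amino acid GABA, and 2 in AT1G65950. The densest 1 kb held 11 SNPs, from 25016554 to 25017537 in the second of these runs, and the densest 100 bp held 6, from 24093384 to 24093475.

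Gaps lay mostly at the flanks. There were 40 distances of 20 kb or more, which made up 13.8% of the segment and held 315 whole protein-coding genes. Only 1 of them opened between 24 and 25 Mb. Long gaps are rarer where density is high, so their place too is a description of density. The longest gap was 87.5 kb, from 28651893 to 28739401. It opened inside AT1G76380, closed between AT1G76580 and AT1G76590, and held 22 protein-coding genes. Among these were CUC3, a NAC transcription factor that sets organ boundaries, PILS3 and PILS4, PIN-LIKES proteins of the endoplasmic reticulum that act in auxin homeostasis, and the cell cycle kinase gene CDKB2;1. The third gap, 61.0 kb from 28441029 to 28502038, opened between AT1G75730 and GASA1 and closed in EXL4. It held 17 genes, among them CLV1, the receptor kinase that restricts the shoot stem cell pool. The fourth, 59.1 kb from 28756009 to 28815123, held 18 genes, including the oxophytodienoate reductase genes OPR1 and OPR2. The first and the fourth gap took up much of the 2 windows with 7 and 3 SNPs.

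The second and the sixth gap had a different gene content. The second, 85.3 kb from 21765160 to 21850449, opened in AT1G58602 and closed in AT1G59460. It held 17 protein-coding genes, of which 0 carried a symbol in the annotation, and 8 of them had exactly the length of another gene in the gap, as 4 pairs. The sixth, 50.8 kb from 21262606 to 21313363, held 3 protein-coding genes and 81 of the 125 transfer RNA genes annotated in the segment. Whether reads could be placed uniquely in these 2 gaps was not tested. In the other 10 of the 12 longest gaps, 0 genes shared a length in this way, and the most transfer RNA genes was 1. The fifth gap, 57.7 kb from 25497948 to 25555635, stood alone in the dense part of the segment. It opened in ATTPS6, closed in AT1G68180 and held 15 genes, including FKF1, a blue-light receptor of the photoperiod pathway.

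Annotated protein-coding genes were poorer in listed SNPs than the sequence between genes. Sequence outside every annotated gene held 619 SNPs per Mb (592 to 647) and protein-coding genes 398 (382 to 414), a ratio of 1.56 (exact 95% interval 1.47 to 1.66). In numbers, 1966 SNPs lay outside genes, 2362 in protein-coding genes, 64 in pseudogenes, 36 in lncRNA genes and 29 in other RNA genes. Pseudogenes held 383 per Mb (295 to 489) and lncRNA genes 510 (357 to 706), and both intervals overlapped that of protein-coding genes. The ratio was above 1 in 9 of 10 windows of 1 Mb, and its interval lay above 1 in 8. From 24 to 25 Mb the densities were 1590 per Mb outside genes and 1111 per Mb inside protein-coding genes (ratio 1.43, 1.28 to 1.60). The exceptions were 26 to 27 Mb, with a ratio of 1.09 (0.892 to 1.32), and the final window, with 0.850 (0.527 to 1.32). In that final window 25 SNPs lay outside genes and 111 inside protein-coding genes.

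**Figure D3:**
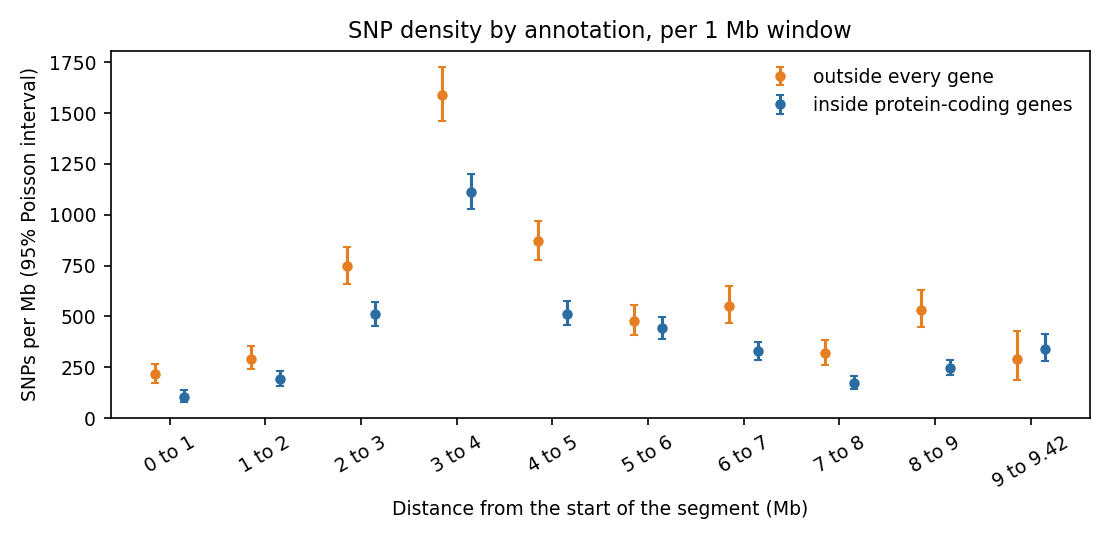
SNPs per Mb (vertical axis) outside every annotated gene (orange) and inside protein-coding genes (blue) in each 1 Mb window of the segment (horizontal axis, Mb from its start at 21 Mb), with exact 95% Poisson intervals. Orange lies above blue in 9 of 10 windows, and both are highest in the fourth window, at 1590 and 1111 per Mb.

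Of 2430 protein-coding genes that start in the segment, 1027 held at least 1 listed SNP (42.3%), against 27.9% of the 25011 protein-coding genes in the rest of the list. This share follows from the density that chose the segment and is a description. It was 68.5% from 24 to 25 Mb and 19.2% from 21 to 22 Mb. Most of the genes with a SNP held few. A single SNP lay in 520 genes, 2 to 4 lay in 387, 5 to 9 in 102 and 10 or more in 18, of which 13 started between 24 and 25 Mb. Genes with a SNP had a median length of 2.48 kb and those without one 1.88 kb.

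GAD2 had the most, with 23 SNPs over 5.92 kb. HEB1, named for its mutant's hypersensitivity to excess boron, had 20. LETM2, for a membrane protein with a leucine zipper and EF hands, and HEXO3, for a beta-hexosaminidase, had 18 each. SIGA, for a sigma factor of the plastid RNA polymerase, and URE, for urease, which releases ammonia from urea, had 16 each, and TRM22 had 14. CLV2, a receptor-like protein of CLAVATA peptide signalling in the shoot meristem, TPX1, a peroxiredoxin gene, and AT1G66250 had 12 each. These 10 genes held 6.82% of the SNPs inside protein-coding genes. Of the 10, 8 started between 24 and 25 Mb, the others being TRM22 and URE. CLV1, of the same pathway as CLV2, had 0.

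Per kb the order changed. Among genes of at least 1 kb, ZFP6 led with 8.10 SNPs per kb, followed by TPX1 with 6.94, AT1G65486 with 6.22 and AT1G66310 with 5.32. SIGA had 4.95, MYB20, a MYB transcription factor gene, 4.79, mtACP2, for a mitochondrial acyl carrier protein, 4.68, WRKY64 4.67, CLV2 4.64 and AT1G64890 4.61. GAD2, first by count, had 3.88 per kb.

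**Figure D4:**
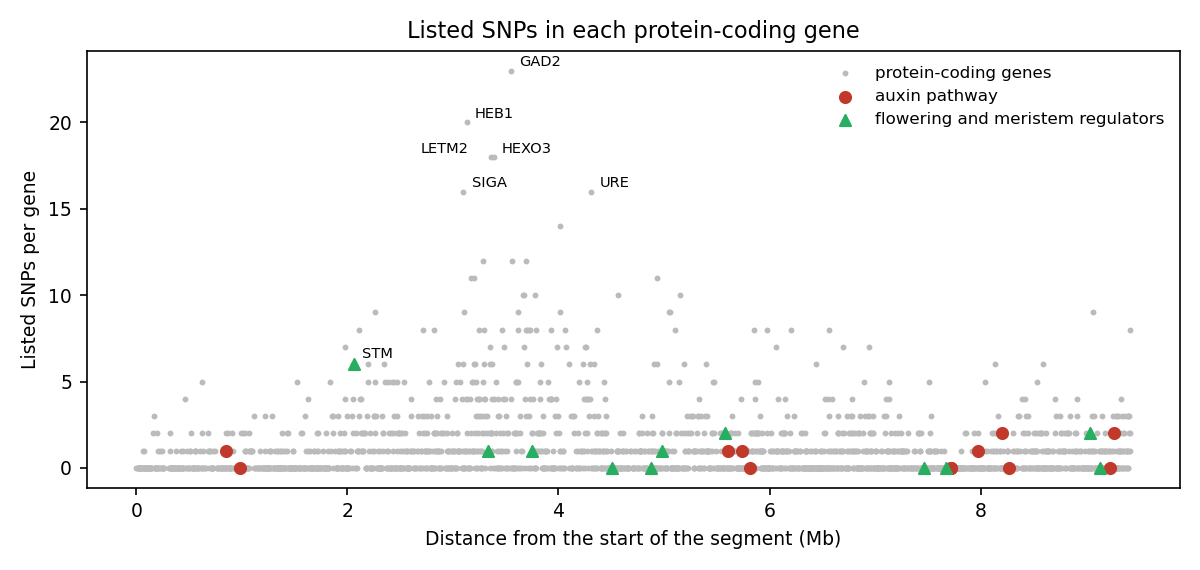
Listed SNPs in each protein-coding gene (vertical axis, count) against the place of its start (horizontal axis, Mb from the start of the segment at 21 Mb); red circles are auxin pathway genes and green triangles flowering and meristem regulators. GAD2 is highest with 23, and STM, with 6, is the highest of the marked genes.

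The densest 100 kb window, from 24.6 to 24.7 Mb, overlapped 23 protein-coding genes. Of these, 18 held a SNP and 10 held 5 or more. AT1G66250 had 12, AT1G66210 and AT1G66220 10 each, AAE11, for an acyl-activating enzyme, 9, AT1G66130 and AT1G66260 8 each, MYB20 7, BGLU21, for a beta-glucosidase, 6, and ZFP4 and AT1G66090 5 each. The 5 genes with 0 were TMK1, ATX1, CLE18, AT1G66100 and AT1G66190, which were named after their values were seen. TMK1 encodes a transmembrane kinase of auxin signalling. In this window 93 of 198 SNPs (47.0%) lay inside protein-coding genes, and the longest gap was 5.75 kb.

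Among 12 auxin pathway genes examined in the segment, 6 held a SNP (50%), beside 42.3% of all its protein-coding genes. Their median was 0.5 SNPs and that of all genes 0. No member had more than 2. TPR1, for a corepressor that Aux/IAA proteins recruit, and LAX3, an auxin influx carrier needed for lateral root emergence, had 2 each. TAA1, which makes the auxin precursor indole-3-pyruvate, the efflux carrier genes PIN3 and PIN6, and GH3.4, of the family of auxin-conjugating enzymes, had 1 each. The 6 members with 0 were the auxin response factors ARF1 and ARF17, the Aux/IAA repressor IAA15, and PILS2, PILS3 and PILS4. ARF1 lay 14.0 kb and PILS3 21.49 kb from the nearest listed SNP, whereas ARF17 had one 0.004 kb away, the SNP that opens the ninth longest gap.

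Of 11 flowering and meristem regulators, 6 held a SNP (54.5%), with a median of 1. STM, the homeobox gene that maintains the shoot meristem, had 6, in a 100 kb window of 63. FT, the florigen gene, had 1 in a window of 152, and RGL1, a DELLA repressor of gibberellin response, had 1 in a window of 162. AP1, a MADS-box gene of floral identity, had 1, and KNAT2, a homeobox gene related to STM, and GL2, a homeobox gene of epidermal fate, had 2 each. CLV1, CUC3, FKF1, TEM2, a repressor of FT, and TMM, a receptor-like protein of stomatal patterning, had 0. Of these, CLV1, CUC3 and FKF1 lay at least 10.7 kb from any listed SNP, and TMM and TEM2 had one within 0.439 and 0.710 kb. With 12 and 11 members, neither list is called different from the other genes of the segment.

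For families recognised by name, counts are read beside the 42.3% of all genes. Members without a matching name were not counted, so these are not shares of whole families. Cytochrome P450 genes held a SNP in 8 of 18 (44.4%), with CYP735A2, a cytokinin hydroxylase gene, at 8 and CYP89A5 at 4. Of the 18, 7 started between 24 and 25 Mb. The receptor kinase genes recognised by name held one in 8 of 11. Among them RK1 had 8 and RK2 had 4, in the same 100 kb window. TMK1, a transmembrane kinase gene with 0, was not matched. Glutathione S-transferases of the tau class, which conjugate glutathione to toxic compounds, held one in 2 of 10 (GSTU19 and GSTU21, 1 each), and 0 of the 10 started between 24 and 25 Mb. Ribosomal protein genes held one in 4 of 7, with RPL3B and RPL34 at 2. The F-box genes recognised by name held one in 4 of 4, with FBS1 and AUF1 at 4. Among these was PP2-B14, with 1, whereas PP2-B13, with 0, was not matched. The pentatricopeptide repeat genes recognised by name held one in 1 of 6, PPR596 with 1.

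Families added after the values were seen are given as values, for the genes recognised by name only. WRKY transcription factor genes held a SNP in 5 of 9, with WRKY57 at 9 and WRKY64 at 6. The matched MYB genes held one in 7 of 13, with MYB20 at 7 and MYB114 at 4, while AtMYB103, with 2, was not matched. MYB113, MYB114 and MYB90, anthocyanin regulators in the same 100 kb window, had 2, 4 and 0. BGLU genes held one in 5 of 7, with BGLU22 at 8 and BGLU21 at 6. Genes with an RLP symbol held one in 5 of 7, with RLP14 at 5 and RLP15 at 3. CLV2, with 12, and TMM, with 0, described above as receptor-like proteins, were not matched. CLE genes, which are short and encode signalling peptides, held one in 1 of 10, CLE26 with 3.

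Set beside 4 other dense stretches of the list, the segment was less dense than 3, and its highest window stood farther above its median than in all 4. It had 473 SNPs per Mb, against 711 (694 to 727) in the first 10 Mb of chromosome 3, 684 (668 to 700) in the first 10 Mb of chromosome 4, 624 (612 to 635) in the first 18 Mb of chromosome 5 and 344 (329 to 358) on chromosome 3 from 17 Mb. Its highest 100 kb window was 5.28 times its median window, against 2.81, 2.75, 3.57 and 2.35 times in those stretches in the same order. In counts, that window held 198 SNPs, against 190, 165, 205 and 73, so the stretch on chromosome 5 had a higher one. The median window of the segment held 37.5, against 67.5, 60, 57.5 and 31. Distances of 100 bp or less made up 22.7% (21.49 to 23.97), against 24.9% (23.9 to 25.9), 24.5% (23.52 to 25.57), 24.1% (23.4 to 24.9) and 17.8% (16.2 to 19.5). The ratio of density outside genes to that in protein-coding genes was 1.56 (1.47 to 1.66), against 1.75 (1.67 to 1.84), 1.49 (1.42 to 1.58), 1.72 (1.65 to 1.79) and 1.66 (1.53 to 1.81), so that 1 stretch had a lower ratio and 3 a higher one. With 1 list and linked sites these differences were not tested. No stretch of chromosome 2 was compared, although its 1 Mb windows from 3 to 7 Mb held 471, 473, 530 and 467 SNPs, close to the density of the segment.

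**Figure D5:**
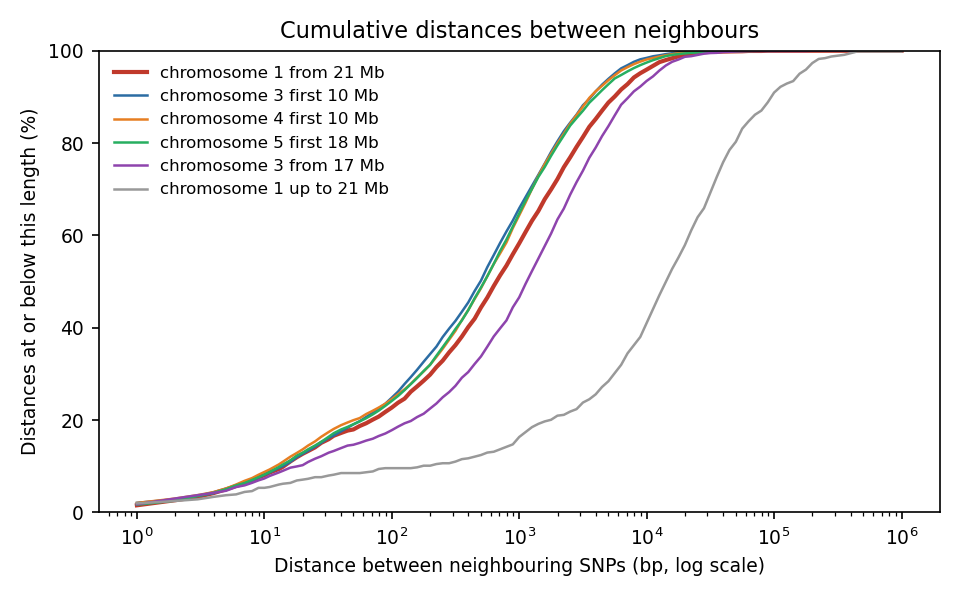
Percent of distances between neighbouring SNPs (vertical axis) at or below a given length (horizontal axis, bp, log scale) in the segment (red, thick), in 4 other dense stretches and in the first 21 Mb of chromosome 1 (grey). The median of the segment, 663 bp, lies between 496 bp in the first 10 Mb of chromosome 3 and 1153 bp on chromosome 3 from 17 Mb.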

How the data were processed

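The authors deposited SNP positions as chromosome number and position, with no measured value. Positions are on TAIR10, per the submitters' processing notes, and came from SNPtrack, per the design text of the series. Which aligner and thresholds were used, and what counted as homozygous, is not given in the sources used here. All 40612 positions could be read and increased within each chromosome.

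SNPs were counted in consecutive windows from position 1. Intervals are exact Poisson or binomial 95% intervals and cover counting error only. Genes came from the RefSeq table of TAIR10.1, an assembly with the same nuclear sequence as TAIR10; its coordinates are not printed. With the table in place 53.0% of the segment's SNPs fell inside protein-coding genes, the lowest of 11 placements shifted by up to 5000 bp either way (57.7% or more in the others). A base covered by several genes was counted once, as protein-coding first, then pseudogene, lncRNA and other RNA. Genes were assigned by their start, and strand was not used.

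Named genes were the members of 2 lists, the 10 genes with most SNPs by count and per kb (at least 1 kb long), those with 5 or more SNPs in the densest 100 kb window, genes at the edges of the 3 longest gaps and clumps, list members inside the 5 longest gaps, and the 2 leading members of each family. CDKB2;1, OPR1, OPR2, ATTPS6, AT1G68180, TMK1, ATX1, CLE18, AT1G66100, AT1G66190, MYB113 and MYB90 fall outside this rule. So do PP2-B13, PP2-B14 and AtMYB103. All of these were named after their values were seen, as were the families added later. Members, lists and rules were chosen with earlier results of these data known. Families were matched on symbols and synonyms, because product text was not used here; immune receptors of the NLR class matched 0 names by the planned words, and the planned abbreviation PPR was dropped after it was seen to match unrelated synonyms. AT1G75640, placed on the auxin list, has no symbol in the table and was left out. Another planned auxin list member is not reported here. Reference bases, codon positions, promoters and sequences were not analysed here. Window, gap and run functions were tested on simulated data. Python 3.11.15, numpy 2.4.6, pandas 2.3.3, scipy 1.17.1 and matplotlib 3.10.9 were used.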

Additional observations from a re-analysis of the deposited data

How the results depend on the processing

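No paired analysis was possible because there was only 1 pool per phenotype, and neither is named in the list. Of 31 alternatives, 16 gave the value within its interval, window or 1.5 times its size. Density was 451 per Mb with the boundary moved 500 kb into the sparse block, 491 with it moved 500 kb the other way and 234 after thinning to 1 SNP per 1 kb. Dense sequence began at 22.8 Mb at 50% of the median, at 20.8 Mb at 10% and at 20.95 Mb with windows shifted by 50 kb. The densest 1 Mb window began at 24.5 Mb with shifted windows. The share of close neighbours was 17.98% at 50 bp, 29.8% at 200 bp and, by a choice made after seeing the data, 32.2% from 24 to 25 Mb alone. Joining neighbours up to 2000 bp apart gave 1237 runs. The ratio of density outside to inside genes was 1.43 from 24 to 25 Mb. Genes with a SNP made up 65.5% with 1 kb flanks, 39.5% after thinning and 39.2% without 24 to 25 Mb. The cause was not tested. Counting SNPs in coding sequence alone, codon positions and reference bases were planned but not run, since neither the sequence nor the exon structure was used here. Read depth limits all values and is unknown.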

Other observations

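Short distances between neighbouring SNPs inside genes were often multiples of 3, the length of a codon. This was looked at only after the positions had been seen. Of 390 distances of 3 to 60 bp with both SNPs inside protein-coding genes of the segment, 165 were multiples of 3 (42.3%, exact binomial 95% interval 37.4 to 47.4), 118 left a remainder of 1 and 107 a remainder of 2. An even split over the 3 remainders would give 33.3%. However, the range begins and ends on a multiple of 3, as do the other ranges used below. It also leaves out distances of 1 and 2 bp, which are not multiples of 3. The value of 33.3% is therefore too low a baseline, and the excess over it was not tested. With both SNPs outside every gene, 114 of 316 were multiples of 3 (36.1%, 30.8 to 41.6), and the 2 intervals overlap. The first value was 41.4% for distances of 3 to 30 bp and 43.2% for 3 to 120 bp. In the first 18 Mb of chromosome 5 the shares were 44.3% (40.6 to 48.0) inside genes and 38.8% (35.7 to 42.0) outside, and in the first 10 Mb of chromosome 3 they were 38.7% (35.1 to 42.5) and 35.6% (31.4 to 40.0). In the first 10 Mb of chromosome 4 they were 42.7% (37.8 to 47.6) and 36.8% (33.0 to 40.8). On chromosome 3 from 17 Mb they were nearly equal, at 42.1% (34.4 to 50.2) and 40.4% (30.9 to 50.5). In the first 21 Mb of chromosome 1 the order was the other way round, with 9 of 19 distances inside genes (47.4%, 24.4 to 71.1) and 9 of 16 outside (56.2%, 29.9 to 80.2). Distances in 1 gene are not independent, and the difference between genes and other sequence was not tested.

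SNPs with no other within 10 kb were rare in the segment, at 34 of 4457 (0.763%). Of these, 17 lay between 21 and 23 Mb, and 0 between 24 and 25 Mb, which is again a description of density.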
